A study of Homo sapiens with 12 samples.

Results

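Replacement histone variants are histones whose genes carry poly(A) signals and are transcribed outside S phase as well as within it, and 9 of them were followed here, namely H2AZ1, H2AZ2, H2AX, H2AJ, MACROH2A1, MACROH2A2, H3-3A, H3-3B and H1-10. They were read as the rows of the count table that carry these symbols, and all 9 were found among 50006 rows. The cells were TK6 (IVGT), human B-lymphoblastoid suspension cells that are a standard of genotoxicity testing. They were kept for 24 h with 3-methylcholanthrene, a polycyclic aromatic hydrocarbon carcinogen that binds the aryl hydrocarbon receptor, at 0 µg/mL (control), 0.0004 µg/mL (low), 0.04 µg/mL (medium) or 4 µg/mL (high). Each concentration had 3 libraries, made from poly(A)-captured RNA and read as pairs of 150 nt. All groups were this 1 line, and the labels name no solvent. They also do not say if replicate libraries had cultures of their own, and the spread that every p-value rests on may be technical.

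Most histone mRNA of a dividing cell comes from clustered, replication-dependent genes without introns, whose transcripts end in a stem-loop in place of a poly(A) tail. Variant histones replace those proteins in parts of the genome. H2A.Z, from H2AZ1 and H2AZ2, flanks active start sites and is loaded by the SRCAP and EP400 complexes. H3.3, the same protein from H3-3A and H3-3B, is deposited by HIRA at transcribed genes and by DAXX and ATRX at heterochromatin and telomeres. H2AX is the histone that ATM, ATR and DNA-PK phosphorylate beside DNA breaks, macroH2A carries a large extra domain and marks silent chromatin, H2A.J is an H2A variant known from senescent cells, and H1-10 is a linker histone.

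The ends of the transcripts show that difference in sequence. Among 19009 protein-coding genes with a RefSeq-linked GENCODE transcript, 48 (0.253%) held the letters of the histone stem-loop on the transcript strand, a run of 16 nt searched with positions 3, 4, 10, 13 and 14 free and all others as in the H2AX site below, and 28 of 65 replication-dependent histone genes did (43.1%). Of the 9 variants only H2AX held these letters. Their absence says only that they are not in the annotated transcript, not that a gene lacks a stem-loop. A poly(A) signal, AATAAA or ATTAAA, lay in the last 50 nt of 8 of the 9 variants, of 14 of 65 replication-dependent genes and of 79.5% of all these genes. MACROH2A1 was the variant without those letters there, and absence says only that they are not in that window. The sites below are shown because they set the variants apart from the histone genes whose mRNA has no poly(A) tail, with the stem-loop or the poly(A) signal in capitals and the transcript read 5′ to 3′.
H2AZ1 poly(A) signal: aagttcAATAAAggtcat
H2AZ2 poly(A) signal: gatggaATTAAAtatatt
H3-3A poly(A) signal: tttgctATTAAAatacat
H3-3B poly(A) signal: gactaaAATAAAattttt
H2AX poly(A) signal: aattttATTAAAggattg
H2AX stem-loop: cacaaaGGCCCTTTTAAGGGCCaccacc
H2AC6 stem-loop: cccaaaGGCTCTTTTCAGAGCCccccta
H2BC4 stem-loop: cccaaaGGCTCTTTTAAGAGCCacccag
H2AX thus carried both kinds of end, as did the clustered gene H2AC6, which is printed with H2BC4 for comparison.

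Library totals ran from 9163368 to 19841387 counts. B-cell markers (9 genes) summed in every library to 2008 to 2894 CPM (counts of a gene per 1000000 counts of its library). Of these, HLA-DRA had only 14 counts in all, while 7 further rows under its symbol held 25096. T and NK markers summed to at most 8.42 CPM with GNLY and CD8A at 0, myeloid markers to at most 6.51 CPM with MPO at 0, and the 3 erythroid markers were at 0. The epithelial and stromal list summed to 495 to 603 CPM, mostly VIM (376 to 450 CPM), which lymphoblasts also make, and the keratin KRT8 (107 to 158 CPM), with EPCAM at 0. The 2 libraries low replicate 3 and high replicate 3 stood apart in mitochondrial 16S ribosomal RNA, at 7.99% and 7.96% of counts against 1.43% to 5.52% in the other 10, and the differences that they moved most are given with and without them. The 69 replication-dependent histone rows together gave 65.8 to 293 CPM, and the 9 variants gave 4.47 to 24.9 times as much in the same library. That sum also differed with the 16S share, since low replicate 3 held the highest (293 CPM) and high replicate 2 the lowest (65.8 CPM). The part of this in the results below was not tested.

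H2AZ1 (chr4:99948088-99950275, minus strand, 5 exon blocks) was the most abundant variant. Per kilobase of exon it stood at 736 ± 95.5 CPM (SD, n = 12), rank 63 of the 24263 rows with counts. H3-3B (chr17:75776434-75779779, minus strand) followed at 181 ± 6.95 CPM per kilobase, rank 224, and H3-3A (chr1:226061831-226072019, plus strand) at 105 ± 11.1, rank 451. MACROH2A1 (chr5:135334381-135399887, minus strand) stood at 58.2 ± 4.67 CPM per kilobase, rank 925. Lower in the order were H2AZ2 (chr7:44826889-44848126, minus strand) at 17.1 ± 3.09 and H2AJ (chr12:14774405-14778002, plus strand) at 7.03 ± 0.807. Then came H2AX (chr11:119093874-119095465, minus strand) at 4.35 ± 0.787, H1-10 (chr3:129314771-129316286, minus strand) at 1.42 ± 0.311, and MACROH2A2 (chr10:70052846-70112282, plus strand) at 0.0331 ± 0.0609. All these coordinates are those of the count table, on GRCh38.p14. Over the 12 libraries the ranges of neighbours in this order did not overlap except for H2AJ (5.63 to 8.30) and H2AX (2.89 to 5.84). Their places are not firm, because a gene's exon length in the table is the union over its isoforms, and 6340 nt for H2AZ2 exceeds the 3804 nt of its longest coding transcript in GENCODE.

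The levels of H2AX and H3-3A depend on bases that a gene shares with a neighbour. The single exon of H2AX is 1592 nt long and 1394 of them (87.6%) also belong to exons of DPAGT1, an enzyme of N-glycan synthesis annotated on the same strand. Only bases 1007 to 1204 of the exon (chr11:119094262-119094459) belong to H2AX alone, and they begin 438 nt past the end of the stem-loop. The whole open reading frame (bases 72 to 503), the stem-loop (553 to 568) and the poly(A) signal (1568 to 1573) lie in shared bases. How reads over 2 genes were counted is not given in the sources used here. Divided by the 198 unshared bases alone, the same H2AX counts gave 35.0 ± 6.33 CPM per kilobase (SD, n = 12) in place of 4.35. These values ran from 23.2 to 46.9, above every value of H2AZ2 (11.97 to 21.4). The division made no allowance for read length. The level that reads lying wholly in those bases would give, and its place against H2AZ2, were therefore not determined. H2AX transcripts that end at the stem-loop do not reach those 198 bases. DPAGT1 itself had 104 ± 10.8 CPM (SD, n = 12) against 6.92 ± 1.25 for H2AX, neither per length.

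H3-3A shares 28.3% of its exon bases with H3-3A-DT, a transcript of the opposite strand that had 6 counts in all. Divided by its 1070 unshared bases alone, the same H3-3A counts gave 146 ± 15.5 CPM per kilobase (118 to 174), which overlaps H3-3B (170 to 194). The processed copy H3P6 on chromosome 2 is identical to the H3-3A reading frame over all 411 nt, longer than a read of 150 nt, so reads from the coding part cannot be told apart. H3P6 held 8823 counts, 28.9 ± 1.81% (SD, n = 12; 25.5% to 31.5%) of the counts of H3P6 and H3-3A together, and the split of counts between these rows is uncertain. The reading frames of H3-3A and H3-3B differ at 88 of 411 positions, with at most 14 identical nt in a row, and those of H2AZ1 and H2AZ2 at 76 of 387, with at most 23. Reads can therefore be assigned within these pairs. MACROH2A1, H1-10 and MACROH2A2 share 6.35%, 1.06% and 0.621% of their exon bases with a neighbour, and H2AZ1, H2AZ2, H2AJ and H3-3B share none.

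H2A.Z is described first. H2AZ1, its main gene, had 669, 718 and 721 CPM in the 3 control libraries, 697, 758 and 490 in low, 578, 626 and 660 in medium and 529, 641 and 567 in high. The lowest value was in low replicate 3, a library high in 16S RNA, and the highest in low replicate 2. All medium and all high libraries lay below all control libraries on this scale, as did those of 8.3% and 8.28% of the 12030 tested genes, and H2AZ1 was the only variant with this. In low no variant did so (4.99% of tested genes). After scaling by TMM factors, which correct for composition, the H2AZ1 libraries overlapped in both comparisons (5.55% and 3.85% of tested genes were all below in medium and high), so the separation depends on the scaling. The mean was 702.5 ± 29.1 CPM in control and 579 ± 57.2 in high (SD, n = 3), a fitted log2 difference of -0.22 ± 0.14 (SE; 95% interval -0.53 to 0.09; edgeR adjusted p = 0.810). That interval holds both no difference and a lower level of up to -0.53. Medium gave -0.14 ± 0.14 and low -0.08 ± 0.14, and without the libraries low replicate 3 and high replicate 3 low gave 0.07, so its sign rested on low replicate 3, while high gave -0.21. With 1 library left out at a time, high ran from -0.31 to -0.15. The mitochondrial share of counts moved with this, at 14.6% to 16.9% in control and 18.5% to 23.1% in high, and its part in the H2AZ1 difference was not tested.

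H2AZ2 encodes a nearly identical H2A.Z from another chromosome. Its CPM were 110.0, 119 and 136 in control, 110.3, 134 and 75.9 in low, 98.0, 118 and 101 in medium and 89.1, 129 and 83.7 in high. The 2 lowest were low replicate 3 and high replicate 3, and the groups overlapped. The difference in high was -0.22 ± 0.20 (SE; -0.66 to 0.23; edgeR adjusted p = 0.810), and -0.11 without those 2 libraries. With 1 library left out at a time it ran from -0.45, without high replicate 2, to -0.10. In low it was -0.16 ± 0.20, and 0.02 without low replicate 3 and high replicate 3. H2AZ2 held 14.5 ± 1.18% of the counts of the pair (SD, n = 12; 12.8% to 16.7%). The highest share was in high replicate 2 and the lowest in high replicate 3, so the spread within the high group spanned that of the whole series.

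H3-3B was the steadiest of the variants. Its CPM were 493, 497 and 490 in control, 507, 474 and 459 in low, 460, 494 and 501 in medium and 480, 489 and 525 in high. All 12 values lay between 459 and 525 around a mean of 489 CPM. The coefficient of variation of its TMM-scaled CPM over all 12 libraries was 4.50%, and 1.28% of all tested genes, or 5.61% of the 2013 genes with a mean of at least 100 CPM, varied less. Counting error alone would give 1.32% if each count were a separate draw. The same measure was 7.66% for MACROH2A1, 10.4% for H2AJ, 10.8% for H3-3A, 12.1% for H2AZ1, 17.3% for H2AX and 17.5% for H2AZ2. The difference in high was 0.07 ± 0.08 (SE; -0.10 to 0.25; edgeR adjusted p = 0.811), the narrowest interval of any variant, and it excludes a change of either sign beyond 0.25. Without low replicate 3 and high replicate 3 it was 0.02. Its direction in low and medium turned with the scaling, from 0.00 and 0.01 with TMM factors to -0.04 and -0.02 without a composition factor.

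H3-3A had 144, 156 and 169 CPM in control, 163, 186 and 127 in low, 146, 153 and 170 in medium and 141, 173 and 147 in high. Control, medium and high covered the same stretch, while low held both the highest and the lowest value of the series. Its differences were 0.06 ± 0.14 in low, 0.03 ± 0.14 in medium and 0.03 ± 0.14 in high (SE; edgeR adjusted p = 0.938, 0.998 and 0.947). The sign in high turned to -0.02 without a composition factor, and low became 0.18 without the 2 libraries high in 16S RNA. H3-3B held 75.8 ± 1.92% of the counts of the H3.3 pair (SD, n = 12), from 71.8% in low replicate 2 to 78.4% in low replicate 3. Per kilobase H3-3B stood 1.74 ± 0.177 times as high as H3-3A (1.40 to 1.998), a ratio that takes in the shared bases and H3P6 described above.

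**Figure D1:**
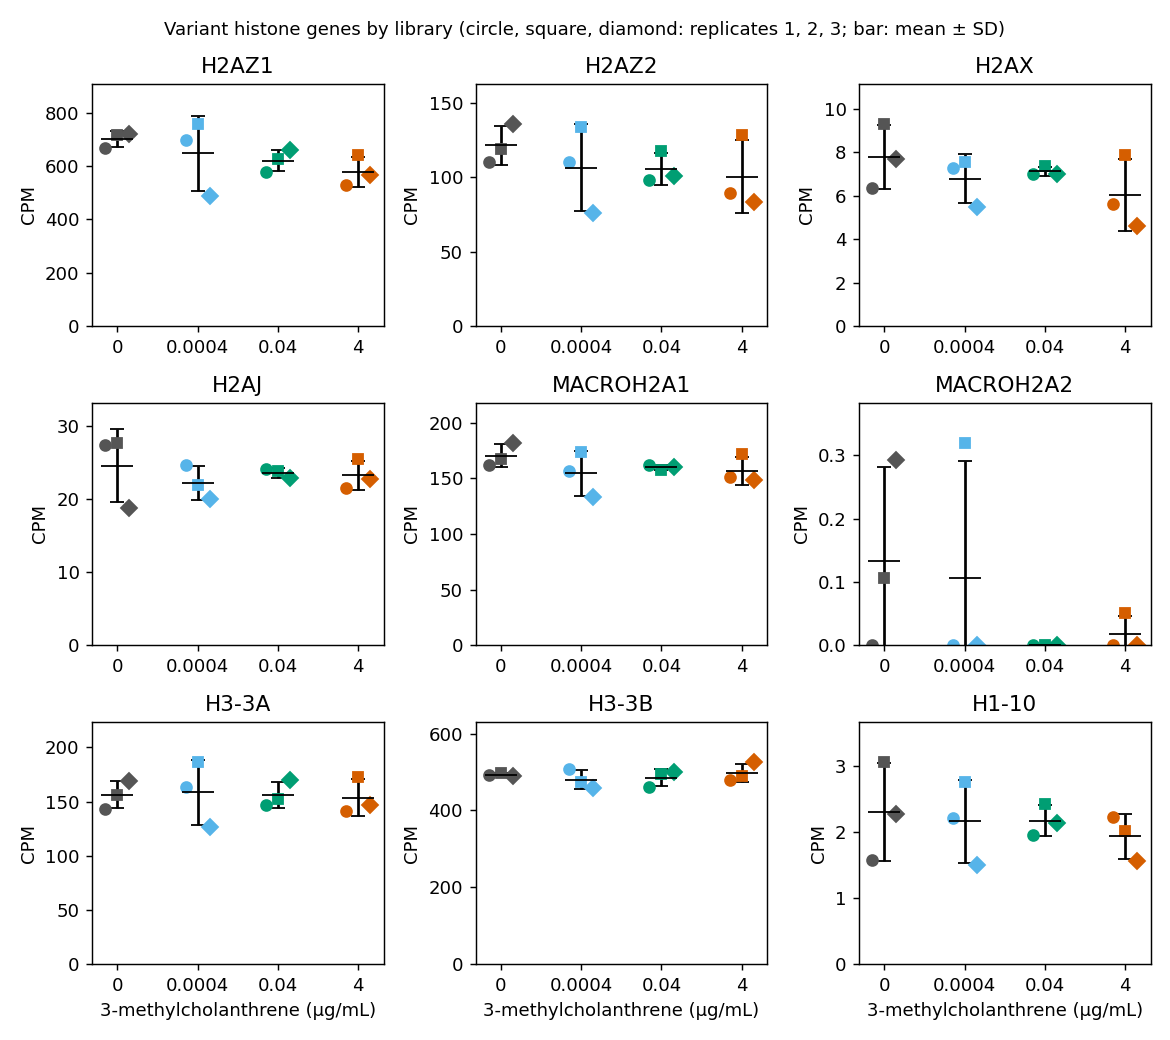
CPM (y axis, from 0, own scale per gene) of the 9 variants in each library against the concentration of 3-methylcholanthrene (x axis, µg/mL, evenly spaced), with circles, squares and diamonds for replicates 1, 2 and 3 and bars for mean ± SD (n = 3). H3-3B stays between 459 and 525. Low replicate 3 is the lowest point for H2AZ1, H2AZ2, H3-3A, H3-3B, MACROH2A1 and H1-10. For MACROH2A2 the lower ends of the bars are clipped at 0.

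Shares within a pair do not depend on library scaling, and they were compared with control by exact permutation tests on log2 count ratios (2-sided, n = 3 against 3, smallest possible p = 0.1; 9 comparisons over 3 pairs). The H3-3B to H3-3A ratio differed by -0.05, -0.02 and 0.04 in low, medium and high (exact p = 0.8, 0.9 and 0.8; adjusted p = 1 in each). The H2AZ2 to H2AZ1 ratio differed by -0.08, -0.02 and -0.01 (exact p = 0.5, 0.9 and 1; adjusted p = 1 in each). For the H3.3 pair the SD within a group was 0.07 to 0.25 and for the H2A.Z pair 0.10 to 0.22, so all these differences were smaller than the spread between libraries of their treated group. For the macroH2A pair the counts were too few for the ratio to carry weight (-0.33, -1.50 and -1.42; exact p = 0.9, 0.2 and 0.2; adjusted p = 1, 0.9 and 0.9). The counting intervals of single libraries of 1 group could still lie apart, in control as in treated groups, as the plot of pair shares shows. These intervals take each count as a separate draw and would be too narrow if both reads of a pair were counted. For the H3.3 pair the counting intervals did not overlap in 1 of 3 pairs of control libraries, in 3 of 3 in low, 0 of 3 in medium and 2 of 3 in high. For the H2A.Z pair this was so in 2 of 3 in control, 0 of 3 in low, 1 of 3 in medium and 3 of 3 in high.

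The upstream sequences of the 4 genes in those pairs are printed because each pair makes 1 or nearly 1 protein from separate genes. They are RefSeq windows on GRCh38.p14, 5′ to 3′ on the gene's strand, with CCAAT (or its reverse ATTGG) and TATAAA in capitals. They were cut to end before any annotated exon of the same gene, and exons of other genes were not looked for.
H2AZ1, chr4:99950389-99950475, minus strand: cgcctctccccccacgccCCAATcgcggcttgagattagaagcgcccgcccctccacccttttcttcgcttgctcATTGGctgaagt
H2AZ2, chr7:44848127-44848287, minus strand: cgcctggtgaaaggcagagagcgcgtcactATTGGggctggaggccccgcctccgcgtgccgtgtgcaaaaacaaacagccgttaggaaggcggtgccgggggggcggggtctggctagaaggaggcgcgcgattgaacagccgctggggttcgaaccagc
H3-3A, chr1:226062516-226062677, plus strand: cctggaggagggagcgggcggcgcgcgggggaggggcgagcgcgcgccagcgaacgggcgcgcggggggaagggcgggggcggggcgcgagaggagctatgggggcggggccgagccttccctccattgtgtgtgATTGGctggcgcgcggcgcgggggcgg
H3-3B, chr17:75779781-75779979, minus strand: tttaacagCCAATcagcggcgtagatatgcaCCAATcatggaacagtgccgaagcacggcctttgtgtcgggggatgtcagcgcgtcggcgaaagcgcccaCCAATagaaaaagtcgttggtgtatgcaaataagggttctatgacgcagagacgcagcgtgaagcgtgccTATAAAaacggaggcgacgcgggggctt
In the full 250 nt before the start, both strands searched, H3-3B and H2AX held 4 CCAAT and 1 TATAAA each, H2AZ1 3 and 1, and H2AZ2 4 and 0. H2AJ held 3 CCAAT and no TATAAA, H1-10 0 and 1, and MACROH2A2 neither. MACROH2A1 held no TATAAA, and CCAAT 0 times before 1 start and 2 times before the other. Of all 35116 RefSeq windows of that length, 10.7% held TATAAA and 32.01% CCAAT. The letters GGGCGG (42.6% of windows) occurred 6 times before the H3-3A start furthest downstream of 4, where CCAAT occurred once, and not at all before H3-3B. That H3-3A window held 75.2% G or C and the H3-3B window 52.4%. Before the other H3-3A starts the windows held 50.4%, 78.4% and 83.2%, with GGGCGG 1, 2 and 3 times. These matches are a description of letters, not of bound sites.

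H2AX, the DNA-damage histone, was counted at 51 to 156 reads per library. Its CPM were 6.33, 9.29 and 7.69 in control, 7.27, 7.56 and 5.49 in low, 6.98, 7.35 and 6.99 in medium and 5.62, 7.86 and 4.60 in high. High replicate 3 and low replicate 3 were the lowest, and every treated group overlapped control. Its difference in high, -0.30 ± 0.23 (SE; -0.81 to 0.21; edgeR adjusted p = 0.810), was the largest of any variant by size over all 12 libraries. Without those 2 libraries it was -0.15, smaller than that of H2AZ1. With 1 library left out at a time it ran from -0.56, without high replicate 2, to -0.15. In low it was -0.16 ± 0.24, and -0.05 without the 2 libraries, and in medium it was -0.09 ± 0.23. DPAGT1, with which it shares most of its exon, had 114 ± 8.14 CPM in control and 96.2 ± 9.49 in high (SD, n = 3). Whether reads of DPAGT1 contribute to the H2AX row was not tested. These are mRNA levels and hold no measure of H2AX phosphorylation.

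H2AJ had 27.3, 27.7 and 18.8 CPM in control, 24.6, 21.9 and 20.02 in low, 24.1, 23.9 and 22.8 in medium and 21.5, 25.5 and 22.7 in high. Control replicate 3 gave the lowest value and control replicate 2 the highest, so the control group spanned all others. The differences were -0.10 ± 0.15, -0.02 ± 0.15 and -0.01 ± 0.14 in low, medium and high (SE; edgeR adjusted p = 0.913, 0.998 and 0.976), and low gave -0.05 without low replicate 3 and high replicate 3. MACROH2A1 had 162, 168 and 182 CPM in control, 156, 174 and 133 in low, 162, 157 and 161 in medium and 151, 172 and 148 in high. The control mean, 170.4 ± 10.3, was the highest of the 4 groups, yet each treated group overlapped control. Medium did so by its highest library alone and barely, at 161.731 CPM against 161.729 in the lowest control library. Its differences were -0.11 ± 0.11, -0.06 ± 0.11 and -0.06 ± 0.11 (SE; edgeR adjusted p = 0.911, 0.998 and 0.854). Without low replicate 3 and high replicate 3, low and high each gave -0.03.

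MACROH2A2 was at the floor of detection. It had 9 counts in all 12 libraries, namely 1 and 4 in control replicates 2 and 3, 3 in low replicate 2 and 1 in high replicate 2. The other 8 libraries, all of medium among them, had 0, which allows up to 3 counts, or 0.203 to 0.327 CPM at their depths. In the same 8 libraries MACROH2A1 had 1237 to 2232 counts. MACROH2A2 did not pass the filter on low counts and was not tested, and fewer cells with it and less RNA per cell cannot be told apart in bulk RNA. H1-10, the linker variant, had 14 to 40 counts per library and mean CPM of 2.31 ± 0.740 without the compound, then 2.17 ± 0.632, 2.18 ± 0.233 and 1.94 ± 0.344 from low to high (SD, n = 3). Its interval in high, -0.92 to 0.54 around -0.19 ± 0.33 (SE; edgeR adjusted p = 0.859), was the widest of any variant tested, and without low replicate 3 and high replicate 3 the difference was -0.07. Counting error alone gives a coefficient of variation of 20%, if each count is a separate draw, against the 20.8% seen.

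Put side by side, no variant passed an adjusted p below 0.05 at any concentration, in the F test over groups or in the trend over concentration rank, where the background was 0% because edgeR called none of the 12030 tested genes. At an unadjusted p below 0.05, edgeR had 339 genes (2.82%) in low, 238 (1.98%) in medium, 375 (3.12%) in high, 210 (1.75%) in the F test and 348 (2.89%) in the trend, and no variant among them. These counts rested on single libraries. Without high replicate 2 there were 2295 genes in high, 565 in the F test and 1797 in the trend, without low replicate 2 there were 1295 in low, and without low replicate 3 there were 996 in the trend. DESeq2 called 4, 7 and 5 genes in low, medium and high and limma voom 0, 1 and 1, none of them a variant. Over the alternatives tried, the smallest adjusted p of any variant was 0.267, for H2AZ2 and H2AX in high without high replicate 2, which was also the smallest of any gene in that fit (edgeR, 12433 genes). Of the 8 variants tested, 6 had a negative difference at each concentration, with medians of -0.09, -0.05 and -0.13 against 0.01, 0.00 and 0.00 over all genes, of which 48.7%, 50.3% and 49.4% were negative. The 3 comparisons share their control libraries, so this is 1 observation rather than 3. H3-3A and H3-3B were the 2 positive ones in each. The count also rested on single libraries, since without low replicate 3 only 3 of 8 were negative in low (median 0.02), and without control replicate 2 there were 3 of 8 in medium (median 0.02) and 4 of 8 in high (median -0.03).

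The sum over all 9 genes was 1678 ± 59.0 CPM in control libraries (SD, n = 3). It was 1579 ± 237 CPM at the low, 1561 ± 75.1 at the medium and 1520 ± 111 at the high concentration (SD, n = 3; exact permutation p = 0.8, 0.2 and 0.2, 2-sided). H2AZ1 made up 40.1% of this sum on average over the 12 libraries and H3-3B 31.0%. MACROH2A1 gave 10.1%, H3-3A 9.85%, H2AZ2 6.81% and H2AJ 1.48%, while H2AX gave 0.435% and H1-10 0.135%. The difference of high from control was -159 CPM as counted and -80.7 CPM with mitochondrial genes left out of the library totals. Without low replicate 3, low stood 34.9 CPM above control.

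Across libraries some variants went with the 16S share and others did not. Over the 12 libraries, 16 relations were computed, 8 variants against the 16S share and against the summed share of 5 RNAs without poly(A) tails (RN7SL1, RN7SL2, RN7SK, RMRP and RPPH1). H2AZ2 had Pearson r = -0.94 and Spearman rho = -0.97 with the 16S share (permutation p = 1e-05 for each, the smallest that 100000 draws can give; adjusted p = 8e-05 and 0.00016). H2AX had r = -0.86 and rho = -0.92 (permutation p = 0.00022 and 0.0001; adjusted p = 0.00088 and 0.000533), and H2AZ1 r = -0.84 and rho = -0.83 (permutation p = 0.00048 and 0.00125; adjusted p = 0.00154 and 0.00286). These are genes whose level was low where 16S RNA was high. MACROH2A1 had r = -0.82 and rho = -0.89 (permutation p = 0.00074 and 0.00026; adjusted p = 0.00197 and 0.00088) and H3-3A r = -0.72 and rho = -0.78 (permutation p = 0.00809 and 0.00407; adjusted p = 0.0129 and 0.00651). H1-10 had r = -0.70 and rho = -0.64 (permutation p = 0.0129 and 0.0303; adjusted p = 0.0188 and 0.0441). H3-3B had r = 0.18 and rho = -0.12 (permutation p = 0.573 and 0.717; adjusted p = 0.611 and 0.765) and H2AJ r = -0.19 and rho = -0.13 (permutation p = 0.56 and 0.7; adjusted p = 0.611 and 0.765).

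Without low replicate 3 and high replicate 3, the libraries farthest from the median, r became -0.95 for H2AZ2, -0.76 for H2AX, -0.84 for H2AZ1, -0.78 for MACROH2A1 and -0.76 for H3-3A. For H1-10 it became -0.46, so that relation rests on those 2 libraries. For H3-3B it became -0.33 and for H2AJ 0.06, so the sign of each turned. With group means removed, r was -0.95 for H2AZ2, -0.84 for H2AX, -0.85 for H2AZ1, -0.84 for MACROH2A1 and -0.85 for H3-3A. An r at least as low was found in 3.76% of all tested genes for H2AZ2, 11.2% for H2AX, 12.9% for H2AZ1, 14.3% for MACROH2A1 and 20.7% for H3-3A, so among the variants H2AZ2 stood lowest and many other genes went the same way. With the share of the 5 RNAs without poly(A) tails, r was -0.91 for H2AZ2, -0.89 for H2AZ1, 0.02 for H3-3B and -0.29 for H2AJ (permutation p = 1e-05, 5e-05, 0.94 and 0.355, adjusted p = 8e-05, 0.000267, 0.94 and 0.437). It was -0.80 for MACROH2A1, -0.79 for H2AX, -0.73 for H3-3A and -0.60 for H1-10 (permutation p = 0.00155, 0.00159, 0.00775 and 0.0402, adjusted p = 0.00318, 0.00318, 0.0129 and 0.0536). An r at least as low was found in 3.23% of all tested genes for H2AZ2 and 5.56% for H2AZ1. The 16S share itself averaged 2.48 ± 1.23% in control and 4.97 ± 3.29% in high (SD, n = 3). All points of 1 library share its depth and total, and what links these levels to 16S RNA was not tested.

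**Figure D2:**
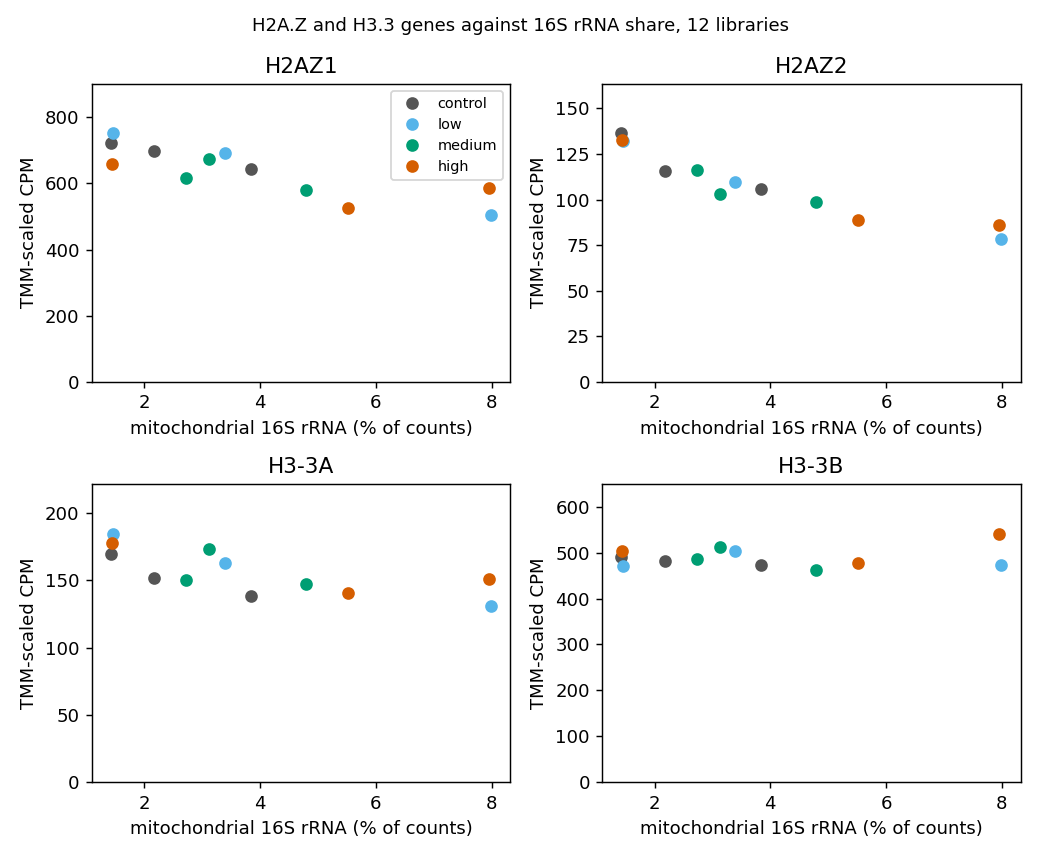
TMM-scaled CPM (y axis, from 0) of H2AZ1, H2AZ2, H3-3A and H3-3B against the share of counts from mitochondrial 16S ribosomal RNA (x axis, %), 1 point a library coloured by group, n = 12. H2AZ2 descends with the share (r = -0.94) and H3-3B does not over all 12 libraries (r = 0.18). Without low replicate 3 and high replicate 3, r for H3-3B is -0.33. Near 1.45% in the H2AZ2 panel the low point lies under the high one.

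Among themselves, H2AZ1 and H2AZ2 varied together (r = 0.87 of TMM-scaled log2 CPM over 12 libraries), and so did H2AZ2 and MACROH2A1 (0.88) and H3-3A and MACROH2A1 (0.83). The 2 genes for H3.3 did not do so to that degree (0.30). H2AJ had no r above 0.26 with any other variant. The tested genes with the most similar pattern over the 12 libraries, by the same measure, were VDAC1 (0.97), GNB1 (0.96) and RPSA2 (0.96) for H2AZ1. For H2AZ2 they were HMGN1 (0.99), SPIN1 (0.99) and PFN1 (0.99), and for MACROH2A1 RAB7A (0.98), SIRPB1 (0.97) and CCNY (0.96). H2AX was most like DPF2, GLOD4 and TM9SF4 (0.95 to 0.96) and CLNS1A and PRELID1 were close to H3-3A (both 0.94). H1-10 was most like AVL9, MRPS31P5 and EXTL3 (0.88 to 0.93). H3-3B and H2AJ had no such close partner, with UBE2Q2, KIAA1191 and PIGX (0.82 to 0.84) and PANO1, BUB1 and MYL5 (0.77 to 0.80).

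The enzymes and chaperones that place these histones were read from lists, and no listed gene was called in any comparison. Genes are named by the F test over groups, and values are given for high and, where they turned sign or were clearly larger, for the other groups. Of 7 H3.3 chaperones, 3 lay above and 4 below control in high (median log2 difference -0.05, against 0.00 over all genes). The 4 with the smallest p in the F test were DAXX, ASF1A, ATRX and HIRA. HIRA, which carries H3.3 to active genes, stood at 139 ± 5.21 CPM in control and 129 ± 3.38 in high. DAXX stood at 0.428 ± 0.422 and 1.29 ± 0.419 CPM (SD, n = 3; log2 difference 1.60 ± 0.80, edgeR adjusted p = 0.810), but 4 further rows of alternate loci carry its symbol and hold 593 counts against its own 129, so its level is uncertain. ASF1A and ATRX had differences of 0.29 ± 0.20 and 0.48 ± 0.34 (SE).

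Of 12 genes of H2A.Z exchange, 4 lay above and 8 below control in high (median -0.07). VPS72, the H2A.Z-binding subunit of the SRCAP complex, stood at 44.6 ± 2.35 CPM in control and 49.5 ± 1.83 in high (SD, n = 3). That is 0.21 ± 0.09 on the log2 scale, with an unadjusted p of 0.039 and an edgeR adjusted p of 0.810. RUVBL2, KAT5 and YEATS4, also subunits of these complexes, had -0.08 ± 0.10, -0.15 ± 0.11 and 0.29 ± 0.17 in high (SE). In medium they had 0.20, 0.15 and -0.04, and in low 0.01, 0.10 and 0.16. Of 13 genes that phosphorylate H2AX, read that mark or remove it, 12 were tested, with 2 above and 10 below control in high (median -0.06). EYA3, a tyrosine phosphatase of H2AX, stood at 77.0 ± 7.44 CPM in control and 49.3 ± 18.4 in high (log2 difference -0.58 ± 0.30; edgeR adjusted p = 0.810), and PPM1D, RNF8 and RNF168 lay within 0.21 of control, while RNF168 had -0.25 in low, PPM1D -0.10 in medium and RNF8 -0.10 in low.

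Of 12 genes of replication-coupled assembly and histone supply, 5 lay above and 7 below control in high (median -0.10). ASF1B, LSM11, SSRP1 and CHAF1B had 0.34 ± 0.51, -0.25 ± 0.12, -0.19 ± 0.13 and -0.10 ± 0.09 there (SE). ASF1B had 1.16 in low (unadjusted p = 0.044, edgeR adjusted p = 0.911) and -0.19 in medium. Its CPM were 17.3 ± 17.4 in low against 7.92 ± 0.739 in control (SD, n = 3). The highest low library held 37.4 CPM, against a median of 7.62 over all 12 libraries. CASP8AP2 and ASF1B have a further row under their symbol. Of 15 other histone genes, 11 were tested, with 8 above and 3 below control in high (median 0.71, against 0.00 over all genes). H1-4, a linker histone of the replication-dependent class, stood at 0.826 ± 0.398 CPM in control and 2.57 ± 1.19 in high (SD, n = 3; log2 difference 1.71 ± 0.69; unadjusted p = 0.031, edgeR adjusted p = 0.810). In low H1-4 had 1.79 (unadjusted p = 0.026, edgeR adjusted p = 0.911). H2BC4 and H1-5 had 0.73 ± 0.39 and 1.39 ± 0.78 in high (SE), and H2BC4 had -0.47 in medium. The polyadenylated centromeric histone CENPA had 0.20 ± 0.10 in high and 0.28 ± 0.10 in low (SE; unadjusted p = 0.064 and 0.015, edgeR adjusted p = 0.810 and 0.911). The replication-dependent sum moved with the 16S share as given above, and its part in these values was not tested. Of 10 readers and nucleosome partners, 3 lay above and 7 below control in high (median -0.11), with CBX3 and HMGB2 at 0.20 ± 0.09 and 0.20 ± 0.10, PWWP2A at -0.02 ± 0.11 and BRD2 at -1.56 ± 1.06 (SE). BRD2 had -0.52 in low and 1.24 in medium. Its CPM were 9.14 ± 12.8 in medium against 3.99 ± 2.06 in control (SD, n = 3), and its highest medium library held 23.9. The BRD2 symbol has 6 further rows that hold 2910 counts against its own 517.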

How the data were processed

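Per the labels' protocols, RNeasy Mini RNA was captured with a KAPA mRNA kit. Tools listed, with no role or order, are HISAT2 2.2.1, fastp 0.23.4, MultiQC 1.27 and featureCounts 2.0.6, and the build is GRCh38.p14, per the submitters' processing notes. Not given in the sources used here are the use of strand, of reads over 2 genes and of multiple alignments. The files deposited by the authors hold raw read counts per gene and, per library, CPM, which equalled count over total within 5e-05, with 51 names rewritten; names came from the count table. Of all values from 1 to 10, 68.7% were even, so counts may hold both reads of a pair. Counting intervals and floors (3 counts a library) cover counting error only and take each count as a separate draw. If both reads were counted, these intervals are too narrow and the floors too low.

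The members, gene lists and tests were chosen with earlier results of these data known. Named are all 9 members, the 4 genes of each list with the smallest p in the F test over groups, and the 3 genes most correlated with each member, of which 1 is not reported here. Genes kept by filterByExpr (12030) were scaled by TMM. The model, run in R 4.3.3, was the quasi-likelihood fit of edgeR 4.0.16 over all 12 libraries (residual degrees of freedom 8), with Benjamini-Hochberg adjustment. Scripts were tested on simulated data. Ratios and sums used exact permutation tests, and correlations 100000 permutations (scipy 1.17.1, Python 3.11.15). DESeq2 1.42.0, limma 3.58.1, other scalings and filters, a replicate block and each library left out were alternatives; the fit without 2 libraries and the level over unshared bases were added after seeing the data. Stem-loops and poly(A) signals were read from GENCODE v29 transcripts and promoters from RefSeq (GRCh38.p14). In none of 66 pairs of libraries did counts agree within sampling noise (chi-square per degree of freedom at least 5.79).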

Additional observations from a re-analysis of the deposited data

How the results depend on the processing

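No variant passed the threshold in edgeR, DESeq2 or limma under any alternative run. Of 459 results for single variants under alternatives other than leaving out 1 library, 23 turned their direction, to values of at most 0.13 in size. The other 436 neither turned nor changed their call. They include F tests over groups, which have no direction. Without low replicate 3 and high replicate 3, low against control became 0.072 for H2AZ1, 0.022 for H2AZ2 and 0.13 for H1-10, and the H2AJ trend became -0.00033. Without a composition factor H3-3B became -0.038 in low and -0.023 in medium, H3-3A -0.023 in high, and the trends of H2AJ and H3-3A -0.014 and -0.0094. On log2 of CPM plus 1 or plus 0.1 (limma-trend), H3-3B became -0.0394 or -0.0395 in low and -0.0238 or -0.0239 in medium, H3-3A -0.026 or -0.0262 in high, and the trends -0.00908 or -0.00917 for H2AJ and -0.00861 or -0.00866 for H3-3A. With limma voom H2AJ became 0.018 in medium and 0.021 in high, and H1-10 0.0086 in medium. With every row of at least 1 count H3-3B became -0.012 in low.

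With each library left out, the differences that changed sign ran as follows. In low they were -0.20 to 0.071 for H2AZ1, -0.34 to 0.022 for H2AZ2, -0.064 to 0.18 for H3-3A, -0.035 to 0.018 for H3-3B and -0.27 to 0.18 for H1-10. In medium they were -0.23 to 0.042 for H2AX, -0.16 to 0.072 for H2AJ, -0.040 to 0.12 for H3-3A, -0.022 to 0.053 for H3-3B, -0.26 to 0.19 for H1-10 and -0.11 to 0.017 for MACROH2A1. In high they were -0.16 to 0.074 for H2AJ, -0.075 to 0.12 for H3-3A, -0.41 to 0.047 for H1-10 and -0.14 to 0.0099 for MACROH2A1. The trends were -0.030 to 0.032 for H2AJ, -0.019 to 0.028 for H3-3A, -0.12 to 0.0032 for H1-10 and -0.037 to 0.0099 for MACROH2A1. For the H3-3B to H3-3A ratio the ranges were -0.17 to 0.084 (low), -0.087 to 0.034 (medium) and -0.029 to 0.14 (high), and for the H2AZ2 to H2AZ1 ratio -0.10 to 0.051 (medium) and -0.13 to 0.093 (high). In low the MACROH2A2 to MACROH2A1 ratio ran from -1.19 to 0.24 and the summed CPM from -189 to 34.9.

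Genes called over all tested, 0 in each of the 5 comparisons as reported, became 3, 7, 4, 35 and 1 in low, medium, high, the F test and the trend with every row of at least 1 count (24263 genes), and 4, 7, 5, 17 and 1 with DESeq2. They became 1, 6 and 0 with only the groups compared, 0, 1, 1, 1 and 0 with limma voom, 1, 2, 1, 2 and 0 with limma-trend plus 1, and 1, 1, 1, 2 and 0 without the 2 libraries high in 16S RNA. The F test had 1 call without a composition factor and 1 with the stricter filter. With each library left out they ran from 0 to 2 at each concentration and 0 to 4 in the F test. The cause of these calls was not tested. With the replicate number as a block the F test had 2 calls and no variant changed its call (H2AZ1 in high -0.23, edgeR adjusted p = 0.692). With the group mean of each gene removed from its log2 CPM, same-numbered libraries correlated at -0.38 to 0.58, and the labels do not pair them. Per-kilobase levels of H2AX and H3-3A moved to 35.0 and 146 when the same counts were divided by unshared bases only. Depth limits H1-10 and MACROH2A2, at 14 to 40 and 0 to 4 counts a library.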
